A study of Mus musculus with 10 samples.

Results

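The genes described here are 10 inflammatory cytokines and effectors, namely *Tnf*, *Il1b*, *Il1rn*, *Il6*, *Il10*, *Il18*, *Nos2*, *Arg1*, *Ptgs2* and *Nlrp3*. They were chosen by gene symbol, as the probes of the array's annotation that carry these names and are no control spots. All 10 genes were found, with 11 probes and 49 spots, among 34797 gene names, 55681 probes and 59305 spots in all. Two-colour microarrays were used to measure RNA of epididymal white adipose tissue (WAT) of 10 mice, which form 1 group, "HFD, DFO injected". By the labels these were adult male C57BL/6J mice (C57BL/6JOlaHsd in the treatment text), 9 weeks old at the start, kept at 29°C, given 3 weeks of a low fat diet and then 12 weeks of a high fat diet (HFD). Desferrioxamine (DFO), a compound that binds iron, was injected daily for 5 days at 100 mg/kg, and food was removed for 2 h before the end. Each mouse's RNA was labelled with Cy5 and hybridised against 1 pool labelled with Cy3. That pool holds RNA of every mouse of the wider study, control mice included, and a share of each mouse's own RNA, and it serves only as a shared reference. Control mice were not analysed here, no effect of DFO can be read from these arrays, and what is described is how the genes varied between the 10 mice. The dyes were never swapped, so the ratio of 1 probe to the pool also holds its dye bias and was not tested against 0.

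Inflamed fat of obese animals is known for macrophages that gather around dying adipocytes. *Tnf* and *Il1b* encode cytokines that drive inflammation, and interleukin-1β and interleukin-18 are made as precursors that caspase-1 cuts inside inflammasomes, of which NLRP3 is a sensor. *Il1rn* encodes the antagonist that blocks the interleukin-1 receptor, and *Il10* encodes a cytokine that restrains macrophages. Inducible nitric oxide synthase (*Nos2*) and arginase 1 (*Arg1*) use the same substrate, arginine, and are often taken as marks of classically and alternatively activated macrophages. Cyclooxygenase-2 (*Ptgs2*) makes the precursor of the prostaglandins, and interleukin-6 acts both on immune cells and on metabolism.

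The results rest mainly on the probes of 5 genes, each 60 bases long, of which the first 30 bases are shown because they are the sequence that did the measuring. The coordinates are those of the array's annotation on mouse build mm9 and cover the whole probe. Whether a probe lies in coding sequence or in an untranslated region was not determined.
*Tnf* (chr17:35336795-35336854, minus strand): tgggctttccgaattcactggagcctcgaa
*Il1b* (chr2:129190347-129190406, minus strand): aggttcctataatatggatgagaattttta
*Il1rn* (chr2:24205094-24205153, plus strand): aacacaccggaagagccccttatagtcacg
*Nos2* (chr11:78773567-78773626, plus strand): caccatgccgccgctctaatacttagctgc
*Arg1* (chr10:24636194-24636253, minus strand): aactctgggaattaagtatttctccatgac
The probes of *Tnf*, *Il1b*, *Il10* and *Ptgs2* were printed in 10 spots per array and those of *Nos2* and *Il6* in 2. *Il1rn*, *Il18*, *Arg1* and the 2 probes of *Nlrp3* had 1 spot each.

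Before the genes are described, 4 mice have to be named. Over the 27716 probes well above background, the first principal component held 75.1% of the variance and set mice 4 to 7 apart from the other 6. All 10 adipocyte markers were lower in each of these 4 mice than in every other mouse with a value (*Retn* had none in mouse 9), for example *Cfd* (adipsin) at log2 ratios of -4.69 to -3.36 against -0.70 to 1.45, and *Adipoq* (adiponectin) at -2.78 to -1.63 against -0.08 to 0.81. With median centring in place of loess, 4 of these 10 markers, *Fabp4*, *Cidec*, *Pnpla2* and *Pparg*, overlapped. Of 10 macrophage markers, 9 were higher in mice 4 to 7 than in every other mouse under each scaling tried, with *Cd68* at 0.65 to 0.99 against -1.39 to -0.10, while *Cd163* was lower. In RNA of whole tissue, fewer cells of a type and less RNA per cell cannot be told apart. These 4 mice were found from the same arrays, so they are no group of the study, and no test sets them against the others.

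How well the genes were measured differed between them. A spot counts as measured when the scanner software marks it as well above background, and a gene as expressed when this held in Cy5 on at least 5 of 10 arrays. *Tnf*, *Il1b*, *Il18*, *Nos2* and *Arg1* were well above background on all 10 arrays in both dyes. *Il1rn* was so on 9 arrays in Cy5, all but that of mouse 3, and on 10 in Cy3. *Il6* reached 5 arrays in Cy5, those of mice 1, 4, 5, 6 and 7, and 7 arrays in Cy3. *Il10* was well above background in Cy5 on 3 arrays only, those of mice 4, 6 and 7, and in Cy3 on 0 arrays. *Ptgs2* reached 1 array in Cy5, that of mouse 2, and 3 in Cy3. Each *Nlrp3* probe reached 1 array in Cy5, that of mouse 7 for one and of mouse 1 for the other, and 0 arrays in Cy3. So 7 of the 10 genes were expressed by this measure, and *Il10*, *Ptgs2* and *Nlrp3* were not. Of all 55681 probes on the array, 27716 passed the same rule and had a value on every array. The array of mouse 3 had the lowest median Cy5 signal, 54.8, of a range up to 81.3.

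**Figure D1:**
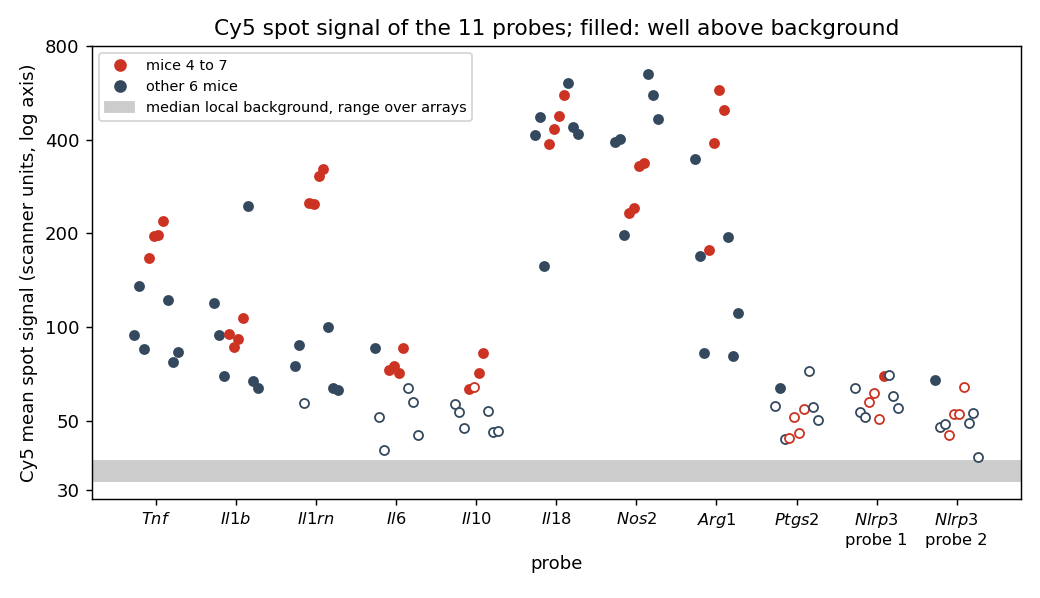
Cy5 mean spot signal in scanner units on a log axis, before normalization, for the 11 probes, with 1 point per mouse from mouse 1 at the left to mouse 10 at the right, filled where the spot was well above background. The grey band is the range of the median local background over arrays, 32 to 37; *Il10*, *Ptgs2* and *Nlrp3* lie close above it, and *Il10* is filled in 3 mice.

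Values are given below as the log2 ratio of Cy5 to Cy3 after background correction and loess. That correction adds 50 to each signal, which shrinks the ratios of dim probes. The ratio of the scanner software, turned to log2 here, adds no such offset and is given beside it.

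*Tnf*, the cytokine after which the tumour necrosis factor family is named, was at log2 ratios of -0.11, 0.05 and 0.08 in mice 1 to 3. It was at 0.55, 0.54, 0.56 and 0.48 in mice 4 to 7, and at -0.18, -0.50 and -0.35 in mice 8 to 10. All 4 of the mice set apart were higher than all 6 others. Before normalization its Cy5 signal was 167, 196, 197 and 219 in mice 4 to 7 and between 77.3 and 135 in the others. With the scanner's ratio the same mice were at 0.96 to 1.14 against -1.19 to 0.24. The SD over mice was 0.40 (n = 10), and the spots of the probe on 1 array gave a mean with a standard error of 0.038. The 4 high mice differed among themselves by 0.08, and the others spanned 0.57.

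*Il1rn*, the antagonist of the interleukin-1 receptor, showed the widest separation of these genes. It was at -0.51, -0.43 and -0.51 in mice 1 to 3 and at -0.41, -0.74 and -0.73 in mice 8 to 10. In mice 4 to 7 it was at 0.73, 0.54, 1.02 and 0.76. The 6 other mice lay within 0.33 of each other, while the nearest of mice 4 to 7 was 0.94 above the highest of them. The ranges were 1.02 to 1.67 and -1.88 to -0.97 with the scanner's ratio. Its Cy5 signal before normalization was 250, 248, 307 and 323 in mice 4 to 7 and 57.1 to 100.2 in the others.

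*Il1b* did not follow the antagonist of its receptor. Its log2 ratios were 0.19, -0.12 and -0.03 in mice 1 to 3 and 0.17, -0.09, -0.03 and -0.16 in mice 4 to 7. They were 0.68, -0.43 and -0.32 in mice 8 to 10. Mice 4 to 7 lay inside the range of the others, and the highest value belonged to mouse 8. The Cy5 signal of that mouse was 245, against 63.7 to 119 in the other 9, and the standard error of an array's mean over spots was 0.036. In the same mouse the neutrophil genes *S100a9*, at 2.25 against at most -0.40 elsewhere, and *Retnlg*, at 0.85 against at most -0.06, were also highest. *S100a8* was at 0.08 there and highest in mouse 2, at 0.90. The 8 expressed neutrophil markers had a mean of 0.43 in mouse 8, against -0.39 to 0.06 elsewhere, but without *S100a9* it was 0.17 against -0.19 to 0.12. Besides *S100a9* and *Retnlg*, *Camp* was highest in mouse 8, the other 5 markers were not, and *Ngp*, a granule gene, was well above background on 1 array. The part of these cells in the level of *Il1b* was not tested.

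*Il18*, whose product is cut by caspase-1 as interleukin-1β is, varied least of the expressed genes after loess. Its log2 ratios were -0.05, -0.03 and -0.40 in mice 1 to 3, 0.16, 0.02, 0.07 and 0.02 in mice 4 to 7, and 0.17, -0.09 and -0.13 in mice 8 to 10. Mice 4 to 7 overlapped with the others, and mouse 3 was the lowest. With the scanner's ratio mouse 3 was at -0.24, and the SD over mice was 0.16 as it was after loess, while with median centring it was 0.36, above the 0.26 of *Il6*. Without mouse 3 the SD was 0.10.

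*Nos2*, the inducible nitric oxide synthase, ran the other way from *Tnf*. It was at 0.00, -0.18 and 0.03 in mice 1 to 3, at -0.47, -0.68, -0.38 and -0.61 in mice 4 to 7 and at 0.14, 0.17 and 0.21 in mice 8 to 10. All of mice 4 to 7 were lower than the 6 others. The scanner's ratio gave -0.76 to -0.48 against -0.33 to 0.28. With median centring the ranges overlapped, at -0.39 to 0.12 against -0.13 to 0.70, although the medians kept their order, at -0.08 and 0.50. Before normalization the Cy5 signals were 232 to 335 in mice 4 to 7 and 392 to 652 in 5 of the others, and mouse 3, on the dimmest array, was at 197.

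*Arg1*, which splits arginine into ornithine and urea, had an SD of 0.76, the largest of the 10 genes after loess. With the scanner's ratio *Il1rn* (1.46) and *Il6* (1.24) had larger SDs than *Arg1* (1.22), and in the deposited value table *Il1rn* (0.98) did (*Arg1* 0.96). It was at 0.82, -0.22 and -0.37 in mice 1 to 3, at 0.09, 0.83, 1.26 and 0.90 in mice 4 to 7 and at -0.31, -1.10 and -0.39 in mice 8 to 10. Mice 1, 5, 6 and 7 were high, with Cy5 signals of 346 to 577, and mouse 4 stood nearer to the low mice. So the order of the mice was not that of *Tnf* or *Il1rn*: mouse 1, with *Tnf* at -0.11 and *Il1rn* at -0.51, had *Arg1* at 0.82, next to 0.83 in mouse 5. The lowest value, in mouse 9, went with a Cy5 signal of 80.7. With the scanner's ratio the values ran from -1.97 in mouse 9 to 1.77 in mouse 6.

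*Il6* was dim, and its 2 spots gave a mean with a standard error of 0.16. Its log2 ratios were 0.13, -0.25 and -0.30 in mice 1 to 3, 0.07, 0.07, 0.19 and 0.08 in mice 4 to 7, and -0.18, -0.35 and -0.34 in mice 8 to 10. The highest values were those of mice 1 and 4 to 7, the mice through whose arrays the gene counts as expressed, and mouse 1 was within the range of mice 4 to 7. The scanner's ratio ran from -2.19 in mouse 3 to 1.21 in mouse 1.

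**Figure D2:**
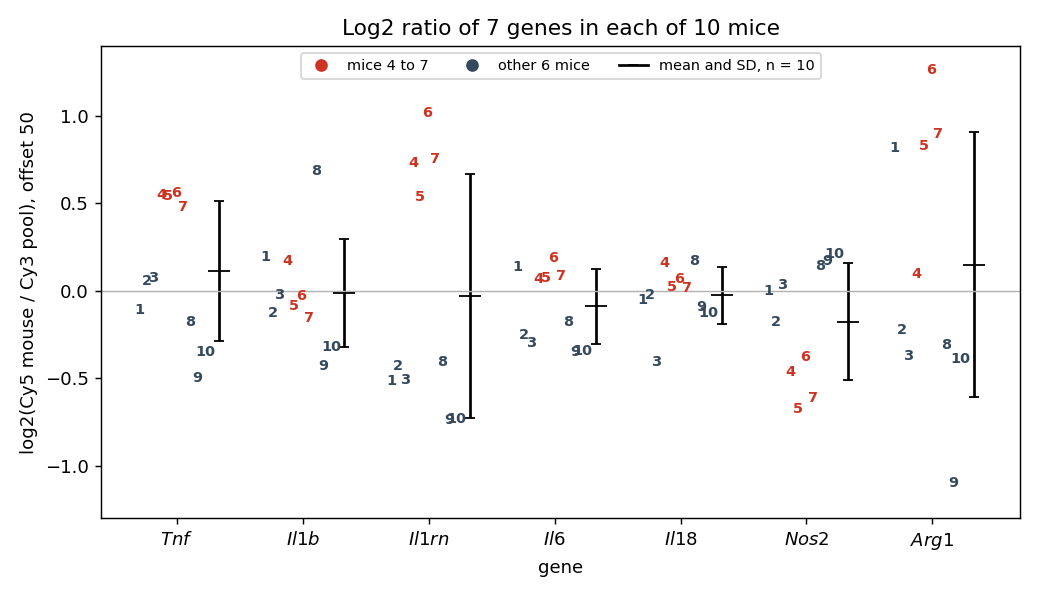
Log2 ratio of Cy5 (mouse) to Cy3 (pool), after background correction with an offset of 50 and loess, for the 7 expressed genes. Each number is a mouse, red for mice 4 to 7, and the black bar is the mean with the SD (n = 10). *Tnf* and *Il1rn* are higher and *Nos2* is lower in all 4 red mice, *Il1b* is highest in mouse 8, and *Arg1* is high in mice 1, 5, 6 and 7.

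The 3 genes that were not expressed by the measure above are given as signals. *Il10* had Cy5 signals of 56.5, 53.3 and 47.3 in mice 1 to 3, of 63.2, 63.9, 70.8 and 82.1 in mice 4 to 7 and of 53.6, 45.8 and 46.2 in mice 8 to 10. The 4 values of mice 4 to 7 were the highest, and this held for the log2 ratio too, at 0.16 to 0.28 against -0.09 to 0.08, and with the scanner's ratio, at 0.93 to 1.47 against -0.79 to 0.55. *Ptgs2* had Cy5 signals of 43.5 to 72.2, with the highest in mouse 8 and the next in mouse 2. Its log2 ratio was -0.38 to -0.12 over the 10 mice, on a probe that was well above background in Cy3 on 3 arrays. The probes of *Nlrp3* lay at 50.6 to 70.1 and 38.1 to 67.3 and did not put the same mouse highest.

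Each slide, the glass that holds 2 of these arrays, carried a pair of mice. Mice 1 and 2 shared a slide, as did mice 5 and 6 and mice 9 and 10. Being set apart was thus partly aligned with the slide. Mouse 4 shared a slide with mouse 3, and mouse 7 with mouse 8. *Tnf* was higher by 0.47 in mouse 4 than in mouse 3 and by 0.66 in mouse 7 than in mouse 8. *Il1rn* was higher by 1.24 and 1.16, and the difference of *Nos2* was -0.50 and -0.75. The direction for these 3 genes follows from the values above, in which all of mice 4 to 7 lay to one side, and only the sizes are added. For *Il1b* the pairs went opposite ways, at 0.20 and -0.84, as they did for *Il18*, at 0.57 and -0.15. The Cy3 level of *Tnf*, which is the same pool on both arrays, differed by 0.06 and 0.04, that of *Il1rn* by 0.28 and 0.17, and that of *Nos2* by 0.15 and -0.04. Over all 5 slides, limma's moderated F test called 0 of the 7 expressed genes at an adjusted p under 0.05 and 0% of the 27716 probes tested. At an unadjusted p under 0.05 there were 1136 probes and 1 of these genes, *Tnf* (p = 0.030). With 2 arrays per slide, the lack of calls does not show that the slides were alike.

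Whether the mice varied more than repeated measurements of the pool was asked with the Pitman-Morgan test, which compares the variance of log2 Cy5 with that of log2 Cy3 over the 10 arrays. The same pool lay on every array, so that its Cy3 values differ only through the measurement and the normalization. Each mouse's RNA was a sample of its own, labelled with the other dye. The Cy5 variance therefore also holds differences of preparation and dye, which the test cannot part from differences between mice. Where a gene is said here to vary more than the pool, only this larger Cy5 variance is meant. All 7 expressed genes passed filters in both dyes and had a larger Cy5 variance. This has to be read against the array as a whole, on which 14970 of 25049 probes, 59.8%, were called in this direction. The SD of *Arg1* was 0.82 in Cy5 and 0.096 in Cy3, a ratio of 8.49 (adjusted p = 4.8e-06, Pitman-Morgan with Benjamini-Hochberg adjustment over all probes). The ratio was 7.61 for *Il1b*, 6.93 for *Tnf*, 5.85 for *Il1rn* and 4.69 for *Nos2*. *Il18*, at 2.95 (adjusted p = 0.0069), was nearest to the median of all probes tested, 2.48. *Il6*, at 3.14, entered the test only through the 5 arrays on which it is high, so its call supports nothing, and it was not tested where all 10 arrays had to be above background. Without mouse 3 the call of *Il18* was lost (adjusted p = 0.36).

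Without mice 4 to 7, over the 6 other mice, 2 of these 7 genes kept a called difference, *Il1b* and *Arg1*, beside 14.2% of all probes tested. Mice 4 to 7 were found from these same arrays, and with fewer mice a call is harder to reach, so a lost call is no further result. For *Tnf*, *Il1rn* and *Nos2* a smaller SD largely follows from the values above, in which all of mice 4 to 7 lay to one side. The SD of *Il1b* over mice was 0.40 without the 4 mice and 0.31 with them, and that of *Arg1* was 0.62 and 0.76. Without mouse 8 alone the SD of *Il1b* was 0.20. The SD of *Il1rn* was 0.15 without them and 0.70 with them, that of *Tnf* 0.23 and 0.40 and that of *Nos2* 0.14 and 0.34. *Il1b* was the gene of these whose SD was larger without mice 4 to 7, beside *Il18* with 0.19 and 0.16.

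**Figure D3:**
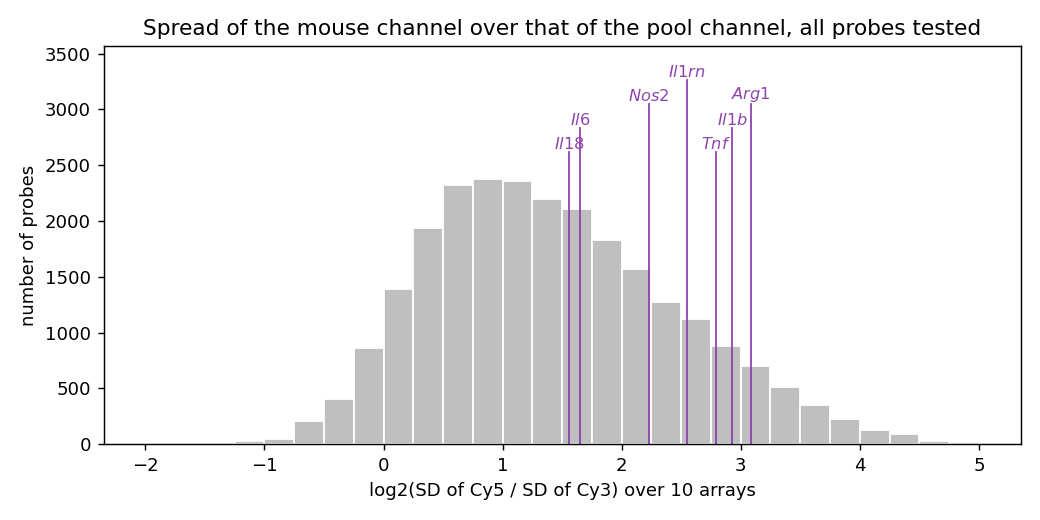
Number of probes (y axis) by the log2 of the SD of Cy5 over the SD of Cy3 across 10 arrays (x axis), for the 25049 probes tested (24 lie outside the axis), with a line for each of the 7 genes. All 7 lie to the right of the median of all probes, with *Il18* and *Il6* nearest to it and *Arg1* farthest.

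The means of several lists of marker genes also set mice 4 to 7 apart, as *Tnf*, *Il1rn* and *Nos2* did, while *Il1b*, *Il6*, *Il18* and *Arg1* overlapped. The mean log2 ratio of the 10 macrophage markers was 0.60 to 0.85 in mice 4 to 7 and -0.91 to -0.01 in the others. Mice 8 to 10, which had the lowest means of this list, also had the lowest *Tnf* values. Mice 9 and 10 had the lowest *Il1rn* values, but mouse 8, at -0.41, had the highest *Il1rn* of the mice outside 4 to 7. The 6 mast cell markers had a mean of 0.24 to 1.76 in mice 4 to 7 and of -0.77 to -0.38 in the others, and the 10 adipocyte markers one of -2.37 to -1.38 against -0.20 to 0.63. For *Arg1*, mouse 1 had the highest mean of the 3 monocyte markers found, 0.31, with *Ccr2* at 0.74, but mice 5 to 7 had means of -0.78 to -0.54. The lymphocyte markers had a mean of -0.36 to -0.25 in mice 4 to 7 and of 0.02 to 0.31 in the others. The mesothelial markers had a mean of -1.65 to -1.15 against -0.60 to 0.23, the endothelial markers one of -0.85 to -0.54 against -0.09 to 0.30 and the blood markers one of -1.63 to -0.99 against -0.66 to 0.39. Taken singly, 3 of 8 expressed lymphocyte markers, 4 of 7 mesothelial and 3 of 4 blood markers were lower in all of mice 4 to 7. With median centring this no longer held for any of those mesothelial and blood markers. The part of these cells in the levels of the cytokine genes was not tested.

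Over all probes well above background, 17.9% were higher in each of mice 4 to 7 than in every other mouse and 21.3% were lower. Of the 7 expressed genes described here, 2 were higher, *Tnf* and *Il1rn*, 1 was lower, *Nos2*, and 4 overlapped. The median SD of the log2 ratio was 0.34 over these 7 genes and 0.18 over all such probes.

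**Figure D4:**
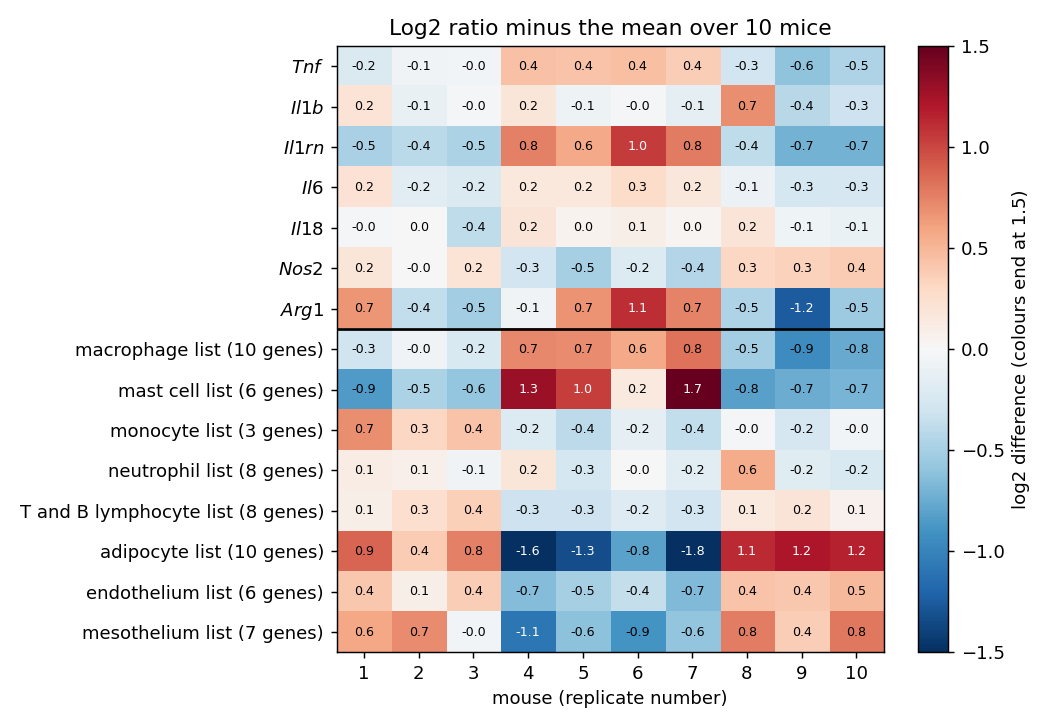
Log2 ratio minus its mean over the 10 mice, by mouse (columns), for the 7 expressed genes (rows above the line) and for the mean of each list of marker genes (rows below it), with the number of expressed genes in the list. Red is above and blue below the mean, and colours end at 1.5; *Tnf* and *Il1rn* share their red columns with the macrophage list and *Nos2* shares its blue ones with the adipocyte list.

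The other genes of these pathways were taken from 6 lists of 83 genes, which are all on the array. Of the 73 whose brightest probe could be tested, 58 had a larger Cy5 than Cy3 variance (79.5%, beside the 59.8% of all probes tested). These shares are of unlike probes, because the 59.8% also holds dim probes and several probes of 1 gene. It was 64.0% where all 10 arrays had to be above background in both dyes. The difference between the lists and all probes was not tested. Among the 77 expressed genes of these lists, 27 were higher and 17 lower in all of mice 4 to 7 than in all others. This stands beside 17.9% and 21.3% of all expressed probes, shares that were taken after loess. With median centring the counts of the lists were 25 and 2, for which no share of all probes is given here. The higher ones were 2 of 14 in the interleukin-1 family list, 8 of 12 in the inflammasome list and 7 of 17 in the TNF list. In the interleukin-6 and interleukin-10 list they were 3 of 13, in the nitric oxide and arginine list 2 of 8 and in the prostaglandin list 5 of 13. The lower ones, in the same order of lists, were 3, 2, 3, 3, 2 and 4.

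In the interleukin-1 family list, 10 of 13 genes tested varied more than the pool, beside 59.8% of all probes. *Sigirr*, a receptor that restrains interleukin-1 signals, was at -0.76 to -0.38 in mice 4 to 7 and at 0.16 to 0.48 in the others, and these ranges overlapped with median centring. *Il33*, an alarmin, was at 0.02 to 0.72 against -0.46 to 0.76, and its receptor *Il1rl1* at -0.04 to 0.73 against -0.57 to 0.19. *Il1a* and *Il18rap* were well above background on 0 arrays.

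In the inflammasome list, 10 of 11 genes tested varied more than the pool, beside 59.8% of all probes. Of 12 expressed genes, 8 were higher in all of mice 4 to 7 after loess, beside 17.9% of all probes. The count was 9 with median centring and 7 with the scanner's ratio, settings for which no share of all probes is given here. *Pycard*, the adaptor ASC, was at 0.70 to 0.91 in these mice and at -0.87 to -0.09 in the others. *Casp1*, the protease that cuts the precursors of interleukin-1β and interleukin-18, was at 0.52 to 0.80 against -0.93 to -0.08, and the sensor *Nlrc4* at 0.45 to 0.91 against -0.70 to -0.08. Of the other 4, *Nek7*, a partner of NLRP3, and *Txnip* were lower in all of mice 4 to 7, and *Casp4* and *Mefv* overlapped. With median centring 0 genes of this list were lower in all of mice 4 to 7, and with the scanner's ratio 1 was.

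In the TNF list, 11 of 17 genes tested varied more than the pool, a share near the 59.8% of all probes. *Tnfrsf1b*, the second receptor of TNF, was at 0.58 to 0.72 in mice 4 to 7 and at -0.97 to -0.15 in the others, and *Tnfaip2*, a TNF-induced gene, at 0.29 to 0.96 against -1.03 to -0.42. *Timp3*, the inhibitor of the enzyme that sheds TNF from the cell surface, was lower, at -1.93 to -1.22 against -0.05 to 0.72. *Tnfrsf1a*, the first receptor, had a ratio of Cy5 to Cy3 SD of 1.93 and was not called.

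In the list of the interleukin-6 and interleukin-10 pathways, 8 of 12 genes tested varied more than the pool, which is also near the 59.8% of all probes. Both chains of the interleukin-10 receptor were higher in all of mice 4 to 7, *Il10rb* at 0.59 to 0.80 against -0.45 to -0.07 and *Il10ra* at 0.40 to 0.62 against -0.81 to 0.03. *Il6st*, the shared signalling chain of the interleukin-6 receptor, was at -0.54 to -0.41 against -0.08 to 0.19, which overlapped with median centring.

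All 7 genes tested of the nitric oxide and arginine list varied more than the pool, beside 59.8% of all probes. *Nos3*, the endothelial nitric oxide synthase, was at -1.62 to -0.59 in mice 4 to 7 and at 0.13 to 0.87 in the others, and 5 of the 6 endothelial markers were lower in these mice as well (1 of 6 with median centring). *Ass1*, which makes the precursor of arginine from citrulline, was at -1.12 to -0.39 against -0.44 to 0.96. *Gch1*, which makes the cofactor of the nitric oxide synthases, was higher, at 0.78 to 1.06 against -0.77 to -0.03, in the mice in which *Nos2* was lower.

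In the prostaglandin list, 12 of 13 genes tested varied more than the pool, beside 59.8% of all probes. *Hpgds*, a prostaglandin D synthase of blood cells, was at 1.05 to 1.33 in mice 4 to 7 and at -1.68 to -0.12 in the others. *Tbxas1*, the thromboxane synthase, was at 0.78 to 1.17 against -1.10 to -0.16. *Ptger3*, a receptor of prostaglandin E2, was at -1.75 to -0.83 against -0.37 to 0.66, which overlapped with median centring.

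For each gene that varied more than the pool except *Nos2*, the 2 genes most like it were sought. The search covered 15048 probes well above background on all arrays in both dyes, fewer than the 22006 such probes of the variance test. The 2 genes most like it were those with the smallest root mean square difference of log2 ratio over the 10 mice. Each gene's own mean was taken away first. For *Tnf*, whose own deviation was 0.38, these were *Htra2* (0.055) and *Rhog* (0.062). For *Il1rn*, with 0.66, they were *Tm6sf1* (0.12) and *Pcdh7* (0.12). For *Il18*, with 0.16, they were *Tmod3* (0.034) and *Hspe1* (0.047), and for *Il6*, with 0.20, *2210417A02Rik* (0.053) and *Armcx3* (0.063). Genes like *Il1b* and *Arg1* were farther away. For *Il1b*, with 0.29, *Cdkn2b* (0.14) and *Bcl3* (0.16) were nearest, and for *Arg1*, with 0.72, *Ccl6* (0.36) and *Ly86* (0.36). All these values come from the same 10 arrays and the same pool.

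Promoters of RefSeq (build GRCm38.p6, 250 bases before to 50 after the start of the gene) were given for 7 of the 10 genes, with 10 promoters in all. They were searched on both strands for ACGTG and GCGTG, the cores of the sites of hypoxia-inducible factors, which share their last 4 bases, and for the NF-κB consensus. Of 32851 promoters of this length, 19.6% held ACGTG, 32.4% GCGTG and 8.46% the NF-κB consensus. Among the expressed genes, *Il6* held the NF-κB consensus and *Il1rn* GCGTG, and each stretch is shown on the strand of its gene with the match in capitals.
*Il6* promoter, match from 44 bases before the start: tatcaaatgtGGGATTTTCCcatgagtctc
*Il1rn* promoter, match on the opposite strand from 136 bases before the start: gctagactgagtCACGCctctggaagctgg
The other matches lay in *Ptgs2*, with GCGTG 98 bases before the start and ACGTG after it, and in *Nlrp3*, with ACGTG and the NF-κB consensus. These are matches of letters and no sites, and no match says only that the letters are not in this window.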

How the data were processed

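The authors deposited 1 file per array from Agilent Feature Extraction 10.7.3.1. The deposited intensity values give spot and local background brightness in each dye, not normalized. The deposited log10 ratio of Cy5 over Cy3 was computed by the software after background subtraction and dye normalization. The deposited value table holds log2 values of 30733 spots. Each column followed the log2 Cy5 signal of its array (r of 0.999 at the lowest over probes), and how it was normalized is not given in the sources used here.

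Here the mean signals were background corrected (normexp, offset 50) and loess normalized with limma 3.58.1 in R 4.3.3, and channels were set between arrays with Aquantile. Control and outlier spots were left out, no spot was saturated, and spots of 1 probe were averaged. A probe was well above background on an array where at least 0.5 of its spots carried that flag. Variances were compared with the Pitman-Morgan test (scipy 1.17.1) and slides with limma's moderated F test, both adjusted over all probes. Both were tried on simulated data with large changes and independent noise. Those data held no mice set apart, so they do not show whether smaller differences would be found. For a gene of a list with several probes the brightest was used. The text names every probe of the 10 genes, the 3 genes of each pathway list with the largest SD among those called, and markers as examples. The genes most like *Nos2* are not reported here. The mice are replicates by the labels, and the number of arrays limits the precision. The genes and lists were chosen with earlier results of these data known. Settings tried instead are given in the closing section.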

Additional observations from a re-analysis of the deposited data

Results flagged for a closer look

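Among 25 genes named above (the 7 expressed genes and 18 of the pathway lists), 1 had a mouse far from the others. *Il18* was lowest in mouse 3, where the gap to the next mouse was 0.484 of the whole range over 10 mice, above the 95% critical value of Dixon's test. With the scanner's ratio this gap was 0.24 of the range and below that value, and under the other scalings tried it was 0.47 to 0.68. Chance gives such a gap in about 1 of 20 groups. The array of mouse 3 also had the lowest median Cy5 signal, 54.8, and the part of that in the value was not tested.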

How the results depend on the processing

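Of the 7 genes with a larger Cy5 than Cy3 variance, 4 were called without normalization between arrays (*Arg1*, *Il1b*, *Il1rn* and *Tnf*) and 2 without mice 4 to 7, a setting chosen after seeing the data. The 58 called genes of the pathway lists were 27 and 22 under these settings, and the 14970 called probes were 4684 and 3553. The cause was not tested in the first case, and the second rests on fewer mice. Leaving out each mouse in turn gave 6 to 7 of the 7 genes and 52 to 58 genes of the lists, beside 53.9% to 57.5% of all probes tested. The other settings were no background subtraction, median centring, all 10 arrays, no filter, slide as a block and an F test. They gave 5 to 9 of the genes and 44 to 57 of the lists, beside 26.1% to 64.0% of all probes tested. The 9 came without the filter and include *Il10* and *Ptgs2*, which were not expressed. The count of expressed genes, 7, was 6 to 7 with a mouse left out and 5 to 10 with other flags, and no share of all probes is given for these settings. *Il6*, at the limit of 5 arrays, is the gene lost with any of mice 1, 4, 5, 6 or 7. No slide setting called any of the genes. With the scanner's ratio the SD of *Tnf* was 0.85, of *Il1b* 0.76, of *Il1rn* 1.46, of *Il6* 1.24 and of *Arg1* 1.22, and in the deposited value table that of *Tnf* was 0.61, of *Il1b* 0.50 and of *Il6* 0.45, each over 1.5 times the value after loess. Over all expressed probes the median log2 ratio was 0.00 with loess and 0.32 with median centring, so the sign of a ratio to the pool has no meaning of its own here. The labels hold 1 group. No paired analysis was possible because there is no second group. Signals close to background limit *Il6*, *Il10*, *Ptgs2* and *Nlrp3*.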
